A study of Mus musculus with 30 samples.

Results

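Untreated tumours of clone 2646R were set against untreated tumours of clone 2646TN, 3 tumours of each, which are 6 of the 30 libraries of the series. The libraries were chosen by their labels alone: titles with 312A_R_UT and the clone name 2646R, and titles with 312A_TN_UT and the clone name 2646TN. Both clones derive from YUMM1.7, a mouse melanoma line that carries an activated Braf allele and has lost Cdkn2a, and the strain label of all libraries is C57BL/6. The clones had been recovered from a barcoded population with CaTCH, which marks each cell with a heritable barcode and then isolates the descendants of a chosen cell. The letters TN and R are not spelled out in the labels and are used here as names. Treated tumours of 2646R and 2646TN, labelled RAFi/MEKi (inhibitors of the RAF and MEK kinases), and untreated tumours of another pair of clones, 14559R and 14559TN, 3 tumours in each group, serve for comparison. Each clone name stands for 1 clone. The p-values therefore cover the spread between tumours within a group, estimated over all 10 groups of the series, and not the spread between clones.

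As background, YUMM1.7 cells signal through the RAF, MEK and ERK kinases, which drive division and induce their own feedback inhibitors. Tumour cells also respond to their surroundings through a few well-known programs. Interferon from immune cells acts through its receptors on the cell and raises antiviral genes and antigen presentation. Shortage of amino acids or misfolded protein acts through the transcription factor Atf4, and shortage of oxygen acts through hypoxia-inducible factors, which raise glycolysis and Vegfa.

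Collagenase had been used to free single cells from the tumours. The injected cells had then been recognised by GFP among live cells, beside a CD45 stain, which marks immune cells; the labels do not say whether CD45-positive cells were removed. Reads came from the 3′ ends of messenger RNA and were deposited as raw counts per gene. Levels are given as CPM, in which each library's counts are scaled to a common total after adjustment for library composition. The 6 libraries held 3125170 to 5278453 counts. 2646R replicate 1 was the deepest and yet had the fewest genes with a count, 14669, against 16063 to 17234 in the other 5 libraries. On a principal component analysis of the 6 libraries the first component held 79.7% of the variance and separated the clones, with 2646R at 53.9, 35.2 and 32.5 and 2646TN at -41.1, -41.3 and -39.2. The second held 10.2% and set 2646R replicate 1 (26.1) apart from replicates 2 and 3 (-12.4 and -20.9). Of the defining pigment cell genes, Tyr, Tyrp1, Dct and Mlana had 0 counts in all 6 libraries. Mitf, the melanocyte master regulator, had 29.1, 51.4 and 23.2 CPM in 2646R tumours and 22.7, 26.2 and 20.5 CPM in 2646TN tumours. Of the genes altered in YUMM1.7, Braf and Cdkn2a did not pass the test, but counts near the 3′ end do not check an allele altered elsewhere in the gene.

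Calls rest on edgeR's quasi-likelihood test, fitted over all 30 libraries, with an adjusted p (Benjamini-Hochberg) under 0.05. Of 13286 genes tested, 4869 were called, which is 36.6%. Of these, 2431 (18.3% of the genes tested) were higher and 2438 (18.4%) were lower in 2646R. The change was over 2-fold for 1046 of the higher and 1314 of the lower genes, and over 16-fold for 76 and 144. All 3 libraries of one clone lay on the same side of all 3 of the other for 2252 of the higher and 2288 of the lower genes. Calling itself favours genes whose groups separate, and the share without overlap over all 13286 genes is not given. These counts, and lack of overlap in single genes below, therefore describe the called genes and add no support to the calls. With about 1 gene in 3 called, the count of called genes in any list below is read against these shares. The count of called genes was 3748 without 2646R replicate 1.

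**Figure D1:**
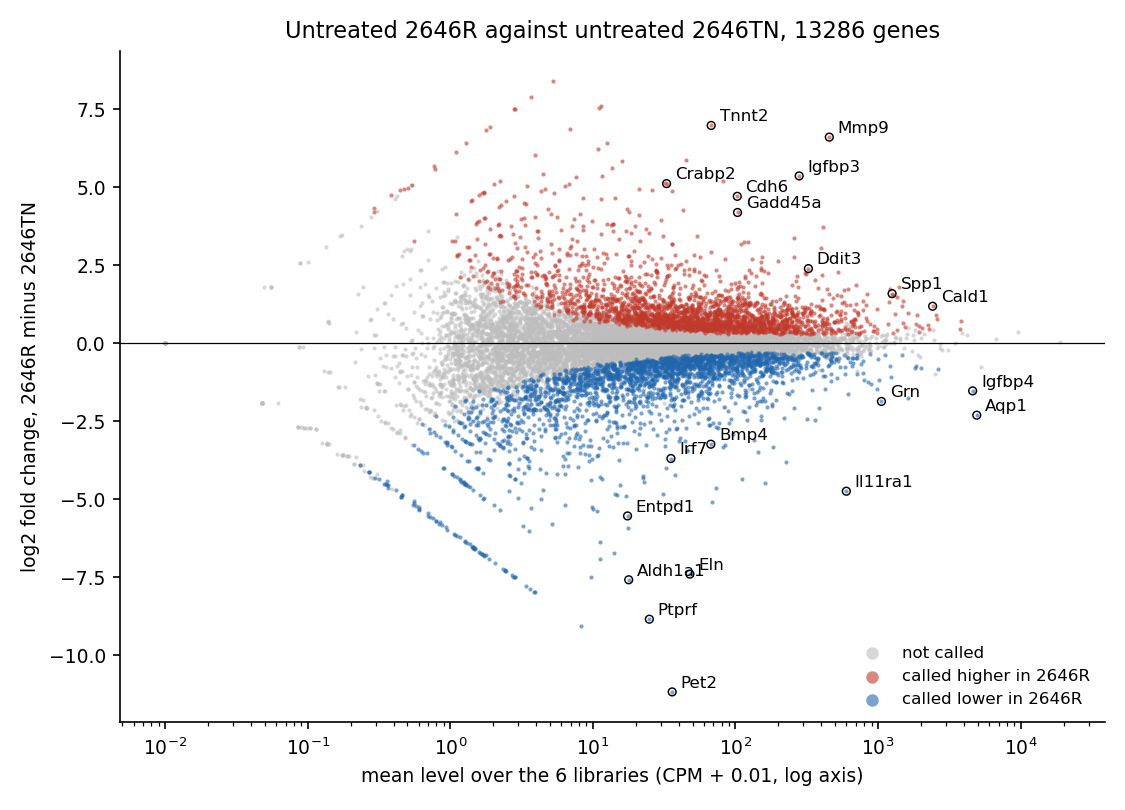
Each point is 1 of the 13286 genes, with its mean level over the 6 libraries (CPM + 0.01, log axis) and its log2 fold change, 2646R minus 2646TN. Red points are the 2431 genes called higher and blue points the 2438 called lower in untreated 2646R. Circles mark 20 named genes, among them Tnnt2 and Mmp9 far above 0 and Pet2 and Ptprf far below it.

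Interferon-stimulated genes were lower in 2646R. Of 31 genes of the type I interferon response 27 were lower, 0 higher and 4 not called, with a median log2 fold change of -2.44, against -0.00458 over all genes tested. Irf7, a transcription factor that amplifies the response, had 1.37, 4.498 and 10.1 CPM in 2646R tumours, against 65.5, 67.3 and 62.7 CPM in 2646TN tumours. Rsad2, the antiviral enzyme viperin, had 1.37, 1.89 and 7.65 CPM in 2646R tumours, against 36.03, 49.6 and 23.1 CPM in 2646TN tumours. Mx2, an antiviral GTPase, had 0, 0.947 and 1.64 CPM in 2646R tumours, against 13.4, 13.1 and 10.8 CPM in 2646TN tumours. In all 3 genes every 2646R tumour lay below every 2646TN tumour. The log2 fold changes were -3.69 ± 0.53 for Irf7 (edgeR adjusted p = 1.32e-05), -3.38 ± 0.51 for Rsad2 (adjusted p = 1.18e-05) and -3.93 ± 0.54 for Mx2 (adjusted p = 9.79e-07). Oas2, which senses double-stranded RNA, had 0 counts in all 3 2646R tumours and 7.05, 4.99 and 4.495 CPM in 2646TN tumours, so it was at least 23.8-fold lower (adjusted p = 6.30e-07), taking a floor of 3 counts over the 3 libraries.

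Factors of the interferon pathway bind elements with the core letters GAAANNGAA, which, read on both strands, were found in 8.56% of all 32851 promoters of a RefSeq table, each running from 250 bases before to 50 after the annotated start. The motif was added after the results were seen, and its share within the list is not given because 64.5% of the members had a promoter in the table. Isg15, a ubiquitin-like protein and a classical interferon target, had 14.5, 3.79 and 24.04 CPM in 2646R tumours, against 98.3, 46.8 and 40.01 CPM in 2646TN tumours (log2 fold change -2.14 ± 0.58, edgeR adjusted p = 0.00676). Its promoter, at chr4:156200769-156201068 on the minus strand of GRCm38.p6, is shown 5′ to 3′ as an example of the list, with 3 overlapping matches in capitals. A match is a description of these letters and not a site of binding.
Isg15: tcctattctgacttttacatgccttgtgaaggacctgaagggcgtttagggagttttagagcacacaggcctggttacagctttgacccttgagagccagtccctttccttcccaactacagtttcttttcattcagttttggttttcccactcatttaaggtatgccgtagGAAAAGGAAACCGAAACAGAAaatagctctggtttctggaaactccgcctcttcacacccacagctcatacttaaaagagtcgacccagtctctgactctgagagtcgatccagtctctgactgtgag

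Genes induced by interferon gamma followed in part. Of 20 such genes 10 were lower, 0 higher and 10 not called, and the median was -1.57. Irgm1, a GTPase of cell defence, had 0, 5.21 and 9.29 CPM in 2646R tumours, against 30.7, 29.9 and 24.5 CPM in 2646TN tumours (log2 fold change -2.64 ± 0.65, adjusted p = 0.00308). Cd274, which encodes the checkpoint ligand PD-L1, had 1.18, 3.79 and 6.28 CPM in 2646R tumours, against 16.9, 13.7 and 24.05 CPM in 2646TN tumours (log2 fold change -2.34 ± 0.49, adjusted p = 3.92e-04). Without 2646R replicate 1, 6 of the 20 genes were lower, and Irgm1 was not called when only the 2 groups entered the fit (adjusted p = 0.0689).

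All 18 tested genes of MHC class I and antigen processing had a negative log2 fold change, but 6 were called lower and 12 were not called. Tapbp, the chaperone that loads peptides onto MHC class I, had 159.7, 272 and 428 CPM in 2646R tumours, against 639, 639.6 and 691 CPM in 2646TN tumours. Its log2 fold change was -1.20 ± 0.28 (edgeR adjusted p = 0.00165). Psmb10, a subunit of the immunoproteasome, had 44.6, 62.97 and 84.4 CPM in 2646R tumours, against 148, 127 and 129.9 CPM in 2646TN tumours, a log2 fold change of -1.08 ± 0.29 (adjusted p = 0.00576). Among those not called, the class I heavy chain gene H2-K1 had 72.1, 344 and 1074 CPM in 2646R tumours and 963, 1057 and 751 CPM in 2646TN tumours. H2-K1, named after its values were seen, shows the spread within 2646R, with replicate 1 far below the 2646TN tumours and replicate 3 above all of them. Replicate 1 was the lowest of the 3 2646R tumours in 25 of the 31 type I genes, 18 of the 20 interferon gamma genes and 17 of the 18 class I genes, and replicate 3 the highest in 26, 18 and 15. Without 2646R replicate 3, 14 of the 18 class I genes were lower.

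All 7 tested genes of MHC class II were lower in 2646R. Cd74, the invariant chain, had 1.96, 4.97 and 11.5 CPM in 2646R tumours, against 67.02, 28.4 and 77.8 CPM in 2646TN tumours, a log2 fold change of -3.29 ± 0.50 (edgeR adjusted p = 1.79e-05). H2-Eb1, a class II beta chain, had 6.87, 6.15 and 17.2 CPM in 2646R tumours, against 68.8, 47.999 and 81.1 CPM in 2646TN tumours, a log2 fold change of -2.74 ± 0.58 (adjusted p = 7.39e-04). The groups did not overlap in either gene.

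Markers of macrophages, which carry MHC class II, were mostly lower in 2646R as well. Among the 2646R tumours, replicate 1 was the lowest in 5 of the 13 tested markers and replicate 3 the highest in 8. Some markers were near 0 in 2646R, such as Csf1r and Adgre1 below, so ties or few counts set their order. These counts are therefore not compared with those of the interferon lists. In the summed level below, replicate 3 was also the highest of the 2646R tumours. Of 13 tested markers 9 were lower and 0 higher in 2646R, and the 15 listed markers summed to 80.7, 56.8 and 114 CPM in 2646R tumours, against 426, 295 and 497 CPM in 2646TN tumours. Csf1r, the macrophage growth factor receptor, had 0.589, 1.89 and 5.46 CPM in 2646R tumours, against 24.7, 15.9 and 26.3 CPM in 2646TN tumours, and Adgre1 had 0, 0 and 0.273 CPM in 2646R tumours, against 1.26, 2.49 and 1.57 CPM in 2646TN tumours. In bulk samples fewer cells of a type and less RNA per cell cannot be told apart. In treated tumours the same marker sum was 285, 242 and 213 CPM in 2646R, against 109.5, 78.6 and 176 CPM in 2646TN, so each treated 2646R tumour lay above each treated 2646TN tumour, while 29 of the 31 type I genes and 18 of the 20 interferon gamma genes were lower in treated 2646R. For MHC class II, 3 of 7 genes were lower in treated 2646R. Since the labels do not say whether CD45-positive cells were removed, the libraries may hold some, and the part of macrophage RNA in the untreated difference of MHC class II was not tested. Of 7 tested endothelial markers 4 were lower, with a summed level of 58.7, 72.4 and 78.7 CPM in 2646R tumours, against 172, 154 and 161 CPM in 2646TN tumours, and lymphocyte markers were near 0 in both, at 0, 0 and 0.546 CPM in 2646R tumours and 0.756, 0.312 and 0.4495 CPM in 2646TN tumours.

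Of 11 tested genes for immune checkpoint ligands and related surface proteins, 5 were higher and 6 lower. Nt5e, the enzyme CD73 that makes adenosine, had 33.6, 23.2 and 20.2 CPM in 2646R tumours, against 0.504, 2.18 and 2.697 CPM in 2646TN tumours (log2 fold change 3.82 ± 0.60, edgeR adjusted p = 1.50e-05). Entpd1, the enzyme CD39 that acts one step before it, went the other way, with 0, 0.947 and 1.37 CPM in 2646R tumours, against 35.8, 39.9 and 26.97 CPM in 2646TN tumours (log2 fold change -5.53 ± 0.65, adjusted p = 1.31e-07). Lgals9, the checkpoint ligand galectin-9, had 0.393, 2.13 and 4.37 CPM in 2646R tumours, against 47.4, 36.2 and 44.7 CPM in 2646TN tumours (log2 fold change -4.31 ± 0.51, adjusted p = 6.94e-07). Entpd1 and Lgals9 are also expressed by macrophages and other immune cells, whose part in these differences was not tested. Of 13 tested chemokines 0 were higher (1 without 2646R replicate 1 or 2) and 2 were lower, Cxcl16 and Cxcl12. Cxcl12, a chemoattractant of stromal tissue, had 53.2, 49.003 and 80.6 CPM in 2646R tumours, against 203, 238 and 229 CPM in 2646TN tumours (log2 fold change -1.88 ± 0.55, adjusted p = 0.0109).

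**Figure D2:**
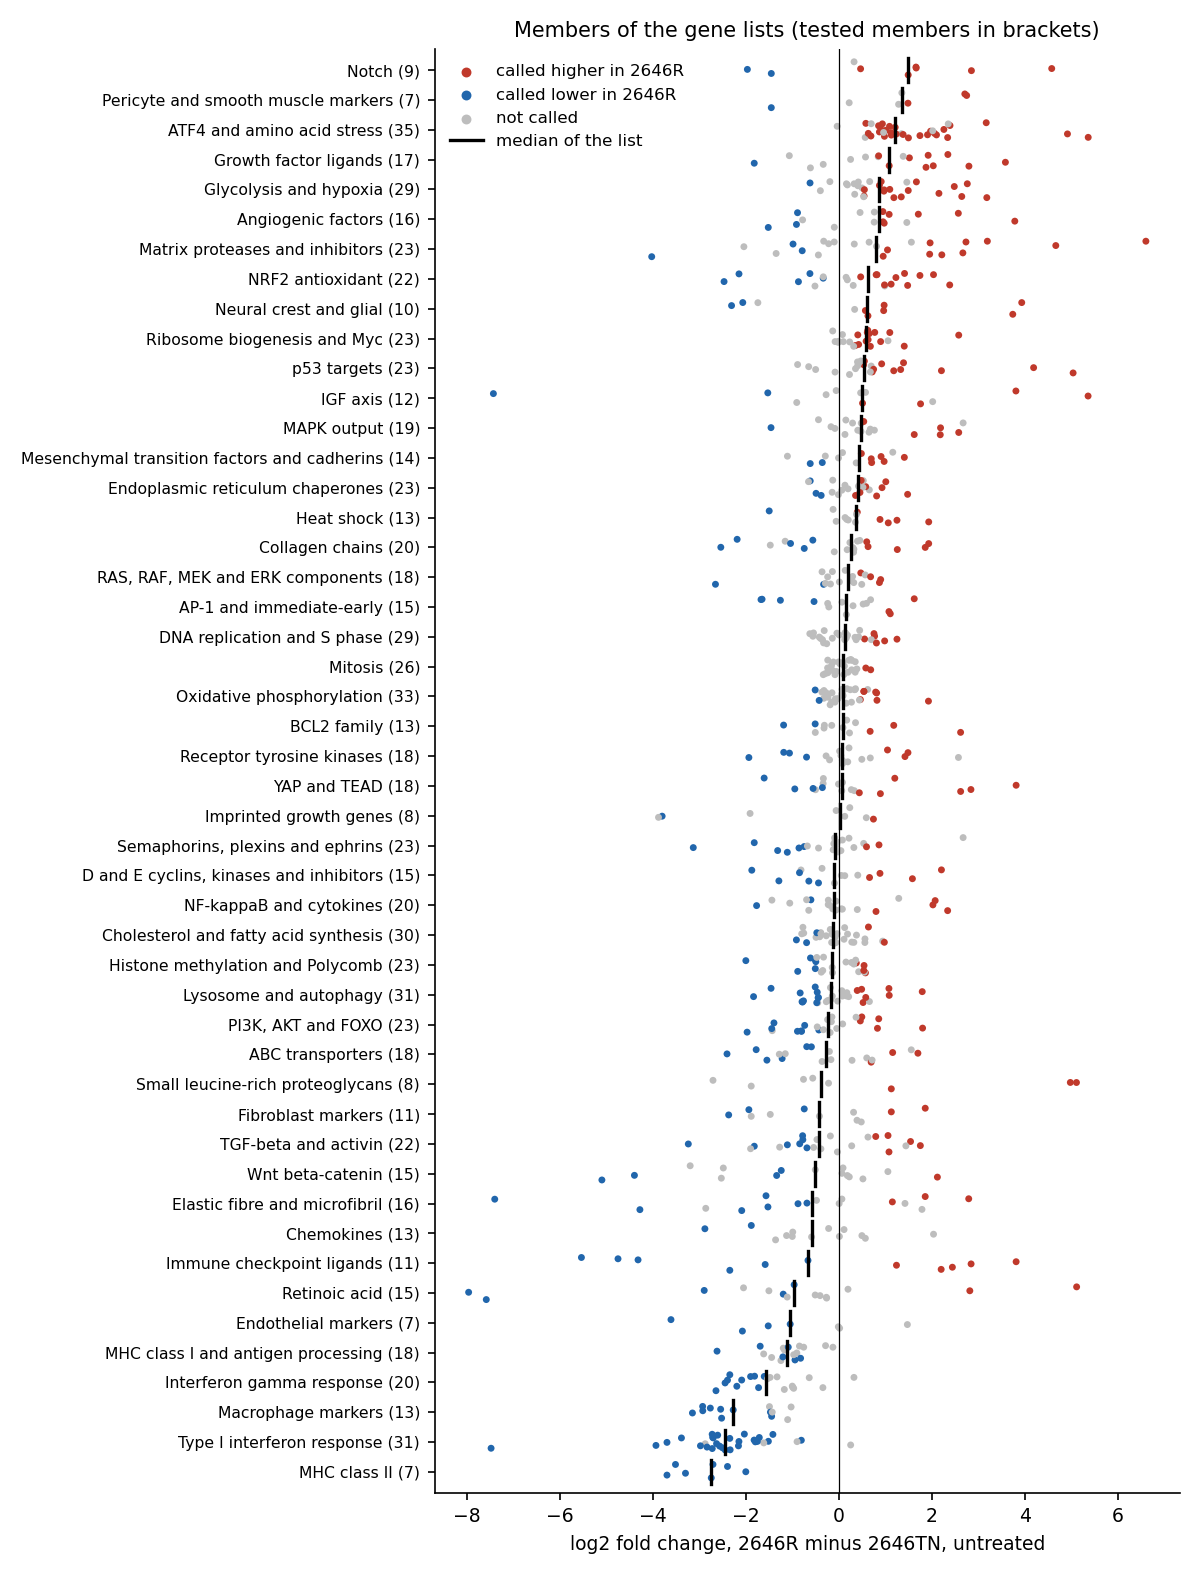
Each point is 1 tested gene of a list, with its log2 fold change, 2646R minus 2646TN, in untreated tumours, and each black bar is the median of the list. MHC class II, type I interferon and macrophage lists lie lowest, with medians of -2.74, -2.44 and -2.27, and the ATF4 and glycolysis lists lie to the right of 0, with medians of 1.22 and 0.88.

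Genes of the amino acid stress response were higher in 2646R. Of 35 tested genes of the ATF4 list 28 were higher, 0 lower and 7 not called, with a median log2 fold change of 1.22, and 34 of the 35 were positive. Ddit3, the transcription factor CHOP, had 647, 468 and 522 CPM in 2646R tumours, against 95.99, 102 and 113 CPM in 2646TN tumours. Trib3, a pseudokinase that CHOP and ATF4 induce, had 209.6, 163 and 220.4 CPM in 2646R tumours, against 19.1, 22.4 and 24.05 CPM in 2646TN tumours. Asns, asparagine synthetase, had 294, 196 and 273 CPM in 2646R tumours, against 43.3, 56.4 and 50.8 CPM in 2646TN tumours. The 3 tumours of 2646R lay far above the 3 of 2646TN in each of these genes. The log2 fold changes were 2.39 ± 0.26 for Ddit3 (edgeR adjusted p = 1.12e-07), 3.17 ± 0.57 for Trib3 (adjusted p = 1.87e-04) and 2.34 ± 0.43 for Asns (adjusted p = 2.13e-04).

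Enzymes and a transporter of the list were higher too. Cth, which makes cysteine from cystathionine, had 19.6, 13.97 and 34.1 CPM in 2646R tumours, against 0.252, 0.623 and 0.674 CPM in 2646TN tumours (log2 fold change 5.37 ± 0.81, edgeR adjusted p = 7.30e-06). Aldh1l2, a mitochondrial enzyme of folate metabolism, had 39.1, 53.97 and 59.002 CPM in 2646R tumours, against 1.76, 1.87 and 1.35 CPM in 2646TN tumours (log2 fold change 4.92 ± 0.64, adjusted p = 1.82e-06). Slc7a11, the cystine importer, had 99.6, 65.6 and 90.4 CPM in 2646R tumours, against 32.8, 26.5 and 17.1 CPM in 2646TN tumours (log2 fold change 1.75 ± 0.47, adjusted p = 0.00537). The groups did not overlap in these genes. Asns and Slc7a11 were chosen after their values were seen, since their promoters are shown here.

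ATF4 binds, together with C/EBP proteins, a composite element in the promoters of its targets. The core letters TGATGNAA, read on both strands, were found in 9 of the 29 ATF4 list members with a promoter in the RefSeq table (31.0%), against 3.97% of all 32851 promoters. The members, called or not, were listed from general knowledge of the ATF4 response. Their share therefore describes the list and not the difference between the clones. A share over the promoters of tested genes was not given. The promoters of Trib3, Asns and Slc7a11 are given as examples of called members that hold a match, 5′ to 3′ on the gene's own strand, from RefSeq on GRCm38.p6, with each match in capitals. Trib3 lies at chr2:152344011-152344310, Asns at chr6:7693160-7693459 and Slc7a11 at chr3:50443564-50443863, all on the minus strand.
Trib3: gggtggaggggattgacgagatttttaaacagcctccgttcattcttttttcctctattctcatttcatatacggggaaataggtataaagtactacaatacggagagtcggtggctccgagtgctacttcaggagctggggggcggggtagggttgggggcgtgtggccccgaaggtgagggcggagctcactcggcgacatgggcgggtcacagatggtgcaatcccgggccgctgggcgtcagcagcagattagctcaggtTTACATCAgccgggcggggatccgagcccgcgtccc
Asns: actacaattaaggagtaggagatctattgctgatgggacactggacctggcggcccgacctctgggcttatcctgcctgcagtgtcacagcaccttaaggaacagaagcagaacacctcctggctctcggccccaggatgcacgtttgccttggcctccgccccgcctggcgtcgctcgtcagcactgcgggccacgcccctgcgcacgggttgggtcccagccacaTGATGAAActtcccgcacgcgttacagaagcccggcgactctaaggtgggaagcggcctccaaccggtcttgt
Slc7a11: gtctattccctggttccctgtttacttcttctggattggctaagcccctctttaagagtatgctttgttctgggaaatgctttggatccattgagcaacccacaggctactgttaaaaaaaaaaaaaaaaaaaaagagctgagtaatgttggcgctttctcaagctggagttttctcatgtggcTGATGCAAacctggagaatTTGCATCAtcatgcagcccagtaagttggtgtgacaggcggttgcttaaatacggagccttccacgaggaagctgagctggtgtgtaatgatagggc
The 1 match of Trib3 lies after the annotated start of transcription, and the 1 match of Asns lies before it. Slc7a11 holds 2 matches.

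Chaperones of the endoplasmic reticulum were higher in part. Of 23 tested genes 9 were higher and 3 lower in 2646R, and the median was 0.43. Edem1, which sends misfolded glycoproteins to degradation, had 94.3, 71.3 and 84.1 CPM in 2646R tumours, against 32.8, 28.7 and 27.9 CPM in 2646TN tumours (log2 fold change 1.48 ± 0.18, edgeR adjusted p = 1.69e-07). Herpud1, another gene of that degradation path, had 106, 84.3 and 90.4 CPM in 2646R tumours, against 52.4, 53.9 and 41.4 CPM in 2646TN tumours (log2 fold change 0.93 ± 0.17, adjusted p = 8.97e-05). Without 2646TN replicate 3, 5 of the 23 genes were higher. Of 13 heat shock genes 5 were higher and 1 lower, and 3 were higher without 2646R replicate 1. Hspd1, the mitochondrial chaperonin, had 376, 269.9 and 289 CPM in 2646R tumours, against 148, 147 and 151 CPM in 2646TN tumours (log2 fold change 1.07 ± 0.15, adjusted p = 1.61e-06). Hspa1a, which heat and handling induce, was lower, with 70.5, 81.4 and 76.8 CPM in 2646R tumours, against 206, 167 and 269 CPM in 2646TN tumours (log2 fold change -1.49 ± 0.43, adjusted p = 0.00925).

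Genes of glycolysis and of the response to low oxygen were higher in 2646R. Of 29 tested genes 16 were higher, 1 lower (Bnip3l) and 12 not called, with a median log2 fold change of 0.88, and without 2646R replicate 3 a second gene was lower. Car9, a surface carbonic anhydrase and a marker of hypoxia, had 46.4, 60.8 and 86.05 CPM in 2646R tumours, against 5.79, 7.17 and 8.09 CPM in 2646TN tumours. Ero1l, an oxidase of protein folding, had 421, 427 and 496 CPM in 2646R tumours, against 83.9, 79.5 and 35.1 CPM in 2646TN tumours. Ndrg1, a gene that hypoxia induces in many cells, had 284, 266 and 475 CPM in 2646R tumours, against 69.3, 58.6 and 35.96 CPM in 2646TN tumours. None of these genes overlapped between the clones. Their log2 fold changes were 3.19 ± 0.32 for Car9 (edgeR adjusted p = 5.19e-09), 2.77 ± 0.38 for Ero1l (adjusted p = 8.20e-06) and 2.65 ± 0.42 for Ndrg1 (adjusted p = 5.29e-05). Slc2a1, the glucose transporter GLUT1, and Vegfa, the main growth factor of blood vessels, were also higher, with log2 fold changes of 2.16 ± 0.31 for Slc2a1 (adjusted p = 9.66e-06) and 0.98 ± 0.14 for Vegfa (adjusted p = 1.33e-06); both were named after their values were seen. The glycolytic enzymes were less uniform: Ldha, Hk2, Tpi1 and Pgk1 were called higher, while Gapdh, Pkm, Aldoa, Eno1, Gpi1, Pfkp, Pfkl and Hk1 were not called. Pgk1 has processed copies in the genome, and its call was lost without 2646R replicate 1 (adjusted p = 0.0898).

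Hypoxia-inducible factors bind elements with the core letters ACGTG, also read on both strands. These letters were found in 18 of the 26 members of the list with a RefSeq promoter (69.2%), against 19.6% of all 32851 promoters. They were also found in 11 of the 29 ATF4 list members with a promoter (37.9%). The share over the promoters of tested genes alone is not given. Members of the hypoxia list, called or not, were also listed from general knowledge, so the share describes the list and not the difference between the clones. The promoter of Car9, at chr4:43506776-43507075 on the plus strand of GRCm38.p6, is shown because Car9 had the largest log2 fold change of the list. It holds 1 match, in capitals, a short way before the start of transcription.
Car9: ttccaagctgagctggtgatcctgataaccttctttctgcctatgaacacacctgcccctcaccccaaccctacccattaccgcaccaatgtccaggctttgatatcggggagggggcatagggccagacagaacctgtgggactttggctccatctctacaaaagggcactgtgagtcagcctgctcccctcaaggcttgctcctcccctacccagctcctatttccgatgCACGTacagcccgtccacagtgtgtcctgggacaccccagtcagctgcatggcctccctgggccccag

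Among 16 angiogenic factors 7 were higher and 3 lower. Angptl4, a secreted inhibitor of lipoprotein lipase that hypoxia induces, had 7.66, 1.18 and 9.83 CPM in 2646R tumours, against 0.252, 0 and 0.899 CPM in 2646TN tumours (log2 fold change 3.79 ± 0.80, edgeR adjusted p = 4.03e-04). Angptl6 had 20.4, 18.7 and 22.4 CPM in 2646R tumours, against 2.77, 4.99 and 2.697 CPM in 2646TN tumours (log2 fold change 2.57 ± 0.39, adjusted p = 5.11e-06). Car6, a secreted carbonic anhydrase, had 78.4, 66.5 and 64.7 CPM in 2646R tumours, against 2.77, 2.49 and 1.798 CPM in 2646TN tumours (log2 fold change 4.89 ± 0.50, adjusted p = 1.74e-08), and Car11 was lower, with 7.46, 7.102 and 2.73 CPM in 2646R tumours, against 15.6, 27.1 and 17.3 CPM in 2646TN tumours (log2 fold change -1.75 ± 0.30, adjusted p = 3.13e-05). In the same libraries 4 of the 7 tested endothelial markers were lower in 2646R, as given above, and 3 were not called.

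**Figure D3:**
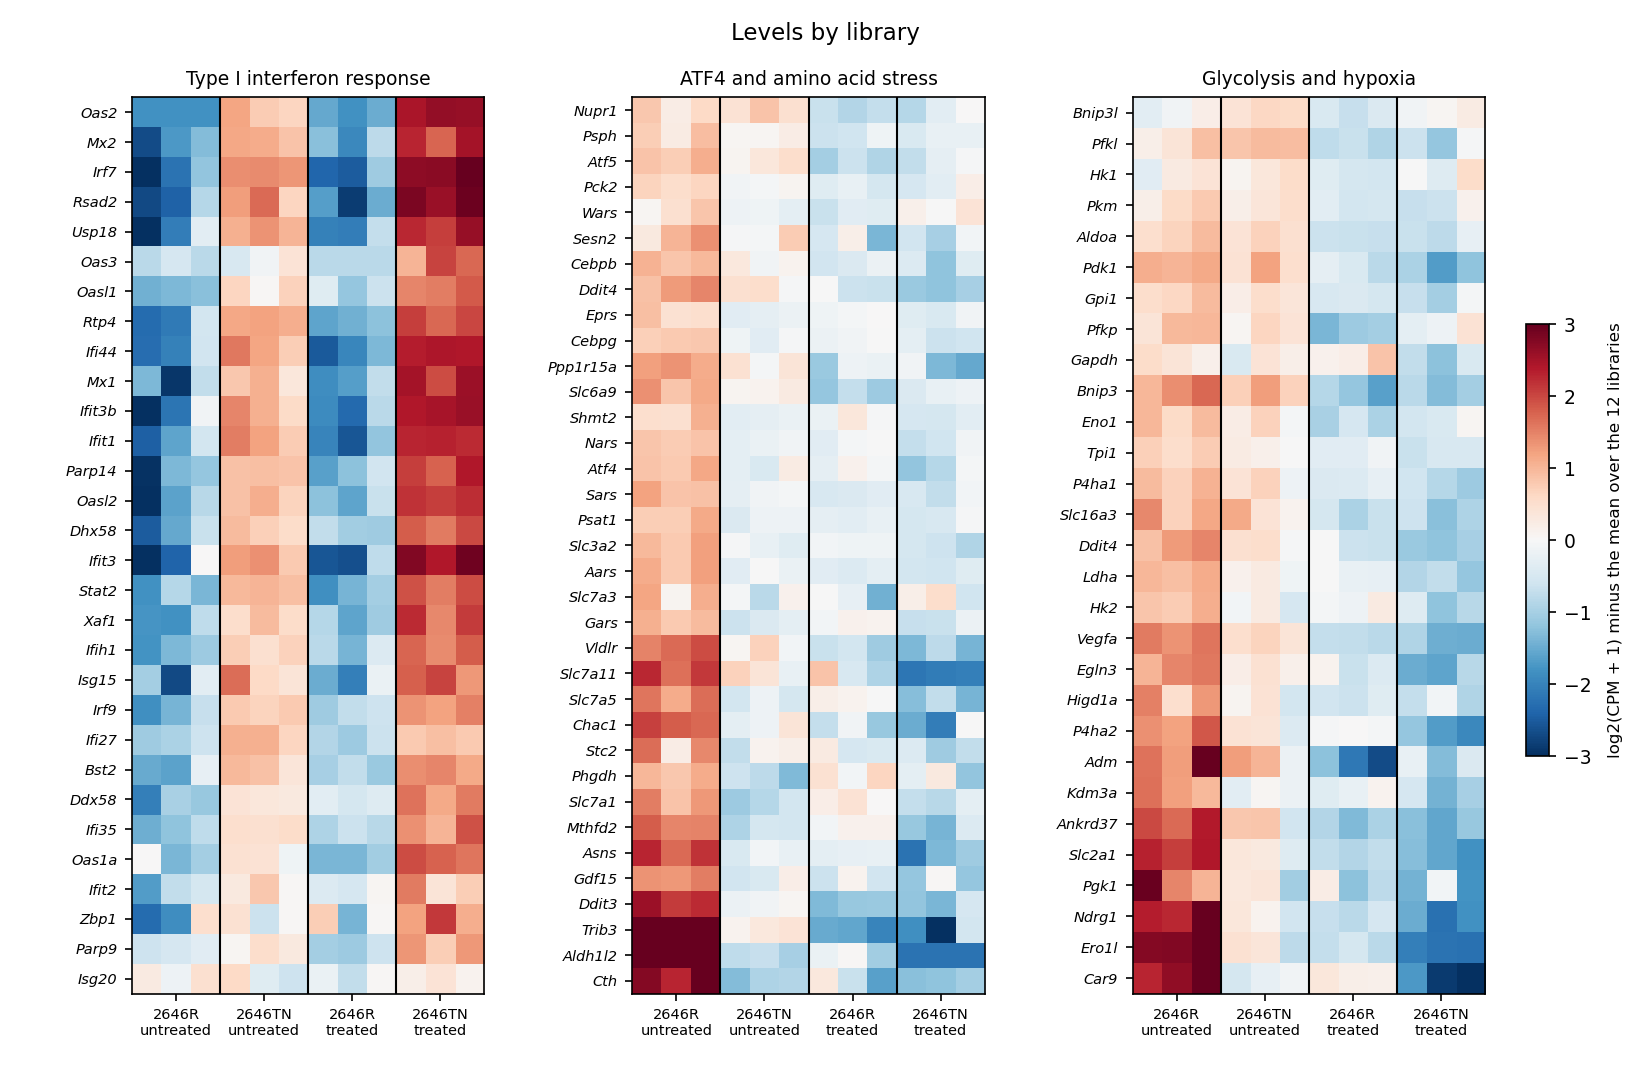
Each row is 1 gene shown of 3 lists, each column 1 tumour, and the colour is log2(CPM + 1) minus the mean of the gene over the 12 libraries, with the scale ending at 3 in either direction. In untreated tumours the interferon genes are low (blue) in 2646R and higher in 2646TN, as in treated tumours, whereas the ATF4 and glycolysis genes are high (red) in untreated 2646R and closer between the treated clones.

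Targets of p53 were higher in part. Of 23 tested genes 11 were higher, 0 lower (1 without 2646R replicate 1) and 12 not called, with a median of 0.55. With a library left out 8 to 10 were higher. Cdkn1a, the cell cycle inhibitor p21, had 482, 529 and 532 CPM in 2646R tumours, against 84.9, 115 and 134 CPM in 2646TN tumours. Gadd45a, a stress gene that ATF4 also induces, had 324, 149.6 and 114 CPM in 2646R tumours, against 8.31, 15.9 and 8.54 CPM in 2646TN tumours. Phlda3, an inhibitor of AKT, had 159.7, 150.1 and 196 CPM in 2646R tumours, against 63.7, 57.97 and 70.1 CPM in 2646TN tumours. In each gene the 2646R tumours lay above the 2646TN tumours, and the log2 fold changes were 2.21 ± 0.32 for Cdkn1a (edgeR adjusted p = 1.51e-05), 4.19 ± 0.40 for Gadd45a (adjusted p = 2.98e-08) and 1.40 ± 0.15 for Phlda3 (adjusted p = 1.23e-08). Of 13 genes of the BCL2 family 3 were higher and 2 lower, and 1 was lower without 2646R replicate 1 or 2 or without 2646TN replicate 2 or 3. Bok, a promoter of cell death, had 94.3, 62.5 and 74.03 CPM in 2646R tumours, against 10.8, 13.4 and 13.3 CPM in 2646TN tumours (log2 fold change 2.62 ± 0.28, adjusted p = 1.74e-08), and Bad, another, was lower, with 122, 156 and 177 CPM in 2646R tumours, against 346, 296 and 389 CPM in 2646TN tumours (log2 fold change -1.18 ± 0.18, adjusted p = 4.34e-06).

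Of 22 antioxidant genes controlled by NRF2, 11 were higher and 5 lower. Gclc, the rate-limiting enzyme of glutathione synthesis, had 101, 75.8 and 82.5 CPM in 2646R tumours, against 15.4, 16.5 and 17.5 CPM in 2646TN tumours (log2 fold change 2.39 ± 0.22, edgeR adjusted p = 1.31e-09). Nqo1, a quinone reductase, had 15.3, 13.97 and 14.5 CPM in 2646R tumours, against 3.78, 3.43 and 3.37 CPM in 2646TN tumours (log2 fold change 2.04 ± 0.36, adjusted p = 4.77e-05). The glutathione transferase Gstm2 was lower, with 0.196, 3.55 and 4.92 CPM in 2646R tumours, against 14.4, 13.7 and 17.5 CPM in 2646TN tumours (log2 fold change -2.46 ± 0.51, adjusted p = 3.33e-04), though it belongs to a family of similar genes among which reads may be shared. The count of lower genes was 3 without 2646R replicate 1.

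Genes of ribosome production were higher. Of 23 tested genes 14 were higher, 0 lower and 9 not called, and the median was 0.59. Myc, the transcription factor that drives this program, had 20.4, 8.996 and 13.4 CPM in 2646R tumours, against 1.26, 3.74 and 2.25 CPM in 2646TN tumours (log2 fold change 2.58 ± 0.50, edgeR adjusted p = 1.50e-04). Gar1, a protein that guides modification of ribosomal RNA, had 55.4, 68.4 and 83.04 CPM in 2646R tumours, against 37.5, 20.6 and 19.3 CPM in 2646TN tumours (log2 fold change 1.41 ± 0.36, adjusted p = 0.00336). Gnl3, the nucleolar protein nucleostemin, had 311, 211 and 185 CPM in 2646R tumours, against 119, 137 and 123 CPM in 2646TN tumours (log2 fold change 0.90 ± 0.16, adjusted p = 3.34e-05). Of 78 tested genes for proteins of the cytosolic ribosome 24 were higher and 1 lower, and most were not called. Their median was 0.33, and over all genes tested 18.3% were higher and 18.4% lower.

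Few division genes were called between the untreated clones. Of 26 mitosis genes 2 were higher, Anln and Cdk1, and 0 lower, with a median of 0.10. Cdk1, the kinase that starts mitosis, had 104, 141 and 127 CPM in 2646R tumours and 111, 74.8 and 62.3 CPM in 2646TN tumours, and its groups overlapped. Leaving out 2646R replicate 2 or 2646TN replicate 2 left 0 mitosis genes higher, and leaving out any other of the 6 libraries left 1; without 2646R replicate 2, 2 were lower. Of 29 DNA replication genes 6 were higher and 0 lower, with 3 higher without 2646TN replicate 3 and 1 lower without 2646R replicate 2 or 3. Mcm4 had 90.1, 75.04 and 65.8 CPM in 2646R tumours, against 34.8, 34.3 and 28.1 CPM in 2646TN tumours (log2 fold change 1.25 ± 0.24, edgeR adjusted p = 1.21e-04), and Mcm2 had 153, 136 and 131 CPM in 2646R tumours, against 83.1, 58.9 and 69.2 CPM in 2646TN tumours (log2 fold change 0.99 ± 0.20, adjusted p = 1.94e-04); both encode subunits of the replication helicase. Among 15 cyclins, their kinases and inhibitors, 4 were higher and 5 lower. Ccnd2, cyclin D2, had 1362, 1088 and 1343 CPM in 2646R tumours, against 368, 429 and 467 CPM in 2646TN tumours (log2 fold change 1.59 ± 0.29, adjusted p = 1.60e-04). Ccnd3, cyclin D3, had 53.8, 54.2 and 62.6 CPM in 2646R tumours, against 125, 173 and 118 CPM in 2646TN tumours (log2 fold change -1.28 ± 0.24, adjusted p = 1.70e-04), and Cdkn2c, an inhibitor of the cyclin D kinases, was also lower (-1.87 ± 0.20, adjusted p = 1.21e-08). Without 2646R replicate 1, 2 genes of this list were lower, and without 2646TN replicate 1, 3 were lower.

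Output genes of the MAPK pathway, the route that RAFi/MEKi blocks, were called no more often than genes in general. Of 19 tested genes 5 were higher, 1 lower and 13 not called, so 31.6% were called, against 36.6% of all genes tested. The values below are those of single genes. Dusp5, a phosphatase of ERK, had 115, 93.98 and 86.3 CPM in 2646R tumours, against 17.9, 18.7 and 27.6 CPM in 2646TN tumours. Dusp4, another such phosphatase, had 78.6, 43.6 and 46.7 CPM in 2646R tumours, against 12.1, 8.73 and 15.96 CPM in 2646TN tumours. Fosl1, an AP-1 factor that ERK stabilises, had 148, 189 and 222 CPM in 2646R tumours, against 54.4, 66.7 and 60.01 CPM in 2646TN tumours. The groups did not overlap, and the log2 fold changes were 2.19 ± 0.31 for Dusp5 (edgeR adjusted p = 3.45e-06), 2.18 ± 0.31 for Dusp4 (adjusted p = 1.94e-06) and 1.63 ± 0.31 for Fosl1 (adjusted p = 2.12e-04). The feedback genes Dusp6, Spry1, Spry2, Spry4, Spred1 and Spred2 were not called. Of 15 AP-1 and immediate-early genes 3 were higher and 4 lower, and 2 were lower without 2646R replicate 1 or without 2646TN replicate 3. Fosb had 15.5, 25.8 and 43.2 CPM in 2646R tumours, against 71.3, 67.01 and 122 CPM in 2646TN tumours (log2 fold change -1.65 ± 0.45, adjusted p = 0.00712), and Jund had 106, 94.5 and 143 CPM in 2646R tumours, against 229.5, 198 and 389 CPM in 2646TN tumours (log2 fold change -1.25 ± 0.31, adjusted p = 0.00326). Genes that tissue dissociation is known to induce, Fos, Fosb and Jun among them, summed to 1473, 1533 and 2015 CPM in 2646R tumours and 1782, 1644 and 2620.2 CPM in 2646TN tumours; the part of handling in the lower AP-1 genes was not tested.

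Of 18 genes of the RAS, RAF, MEK and ERK chain 4 were higher and 2 lower. Map2k1, the kinase MEK1, had 70.7, 60.4 and 70.7 CPM in 2646R tumours, against 38.8, 39.9 and 29.4 CPM in 2646TN tumours (log2 fold change 0.90 ± 0.20, edgeR adjusted p = 5.94e-04). Ksr1, a scaffold that holds RAF, MEK and ERK together, had 3.93, 2.604 and 5.74 CPM in 2646R tumours, against 23.2, 22.8 and 30.3 CPM in 2646TN tumours (log2 fold change -2.65 ± 0.31, adjusted p = 8.76e-08). In the PI3K pathway, which carries growth factor signals beside RAS and ERK, 5 of 23 genes were higher and 8 lower. Pik3r1, the regulatory subunit of PI3K, had 48.5, 71.97 and 49.7 CPM in 2646R tumours, against 199.5, 248 and 218 CPM in 2646TN tumours (log2 fold change -1.97 ± 0.21, adjusted p = 4.59e-08). Irs1, which couples the insulin and IGF receptors to PI3K, had 23.4, 26.8 and 30.6 CPM in 2646R tumours, against 71.8, 85.4 and 61.4 CPM in 2646TN tumours (log2 fold change -1.44 ± 0.21, adjusted p = 2.65e-06). Without 2646R replicate 1, 3 PI3K genes were higher, and without 2646R replicate 1, 2646TN replicate 1 or 2646TN replicate 2, 1 gene of the RAS to ERK chain was lower, in each case.

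Several growth factor ligands were higher in 2646R. Of 17 tested ligands 9 were higher and 1 lower, and of 18 receptor tyrosine kinases 3 were higher and 4 lower. Areg, a ligand of the EGF receptor, had 36.7, 25.1 and 14.8 CPM in 2646R tumours, against 1.76, 0.935 and 3.37 CPM in 2646TN tumours (log2 fold change 3.59 ± 0.63, edgeR adjusted p = 9.29e-05). Btc, another such ligand, had 122, 153 and 93.1 CPM in 2646R tumours, against 17.1, 20.6 and 34.2 CPM in 2646TN tumours (log2 fold change 2.35 ± 0.44, adjusted p = 2.57e-04). Pdgfa, a PDGF ligand, had 616, 473 and 665 CPM in 2646R tumours, against 159, 149 and 120.5 CPM in 2646TN tumours (log2 fold change 2.03 ± 0.17, adjusted p = 1.28e-10). The PDGF receptor genes moved apart. Pdgfra had 60.9, 94.5 and 69.4 CPM in 2646R tumours, against 293, 328 and 235 CPM in 2646TN tumours (log2 fold change -1.93 ± 0.23, adjusted p = 3.65e-07). Pdgfrb had 99.2, 160 and 131 CPM in 2646R tumours, against 60.5, 46.8 and 31.9 CPM in 2646TN tumours (log2 fold change 1.49 ± 0.31, adjusted p = 5.94e-04). The call of the lower ligand, Hgf, was lost without 2646R replicate 1, 2646R replicate 3, 2646TN replicate 2 or 2646TN replicate 3.

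In the IGF axis 4 of 12 genes were higher and 2 lower. Igfbp3, which binds IGF in the fluid around cells, had 417, 548 and 674 CPM in 2646R tumours, against 13.4, 16.5 and 10.3 CPM in 2646TN tumours (log2 fold change 5.36 ± 0.28, edgeR adjusted p = 1.12e-12). Igfbp4, a relative that inhibits IGF, had 1973, 2446 and 2721 CPM in 2646R tumours, against 7771, 7106 and 5639 CPM in 2646TN tumours (log2 fold change -1.52 ± 0.24, adjusted p = 1.79e-05). Pappa, the protease that cuts Igfbp4 and frees IGF, had 0 counts in 2646R tumours and 4.03, 9.04 and 3.15 CPM in 2646TN tumours, and was at least 21.9-fold lower (adjusted p = 1.13e-05). The count of higher genes was 2 without 2646R replicate 1, 2646TN replicate 1 or 2646TN replicate 3.

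Genes for matrix proteases and their regulators were higher in 10 of 23 cases and lower in 3. Mmp9, a gelatinase, had 498, 791 and 1415 CPM in 2646R tumours, against 12.1, 6.23 and 8.99 CPM in 2646TN tumours. Mmp10, a stromelysin, had 10.998, 7.34 and 30.6 CPM in 2646R tumours, against 0.756, 0.623 and 0.4495 CPM in 2646TN tumours. Both genes were higher in every 2646R tumour than in any 2646TN tumour, which was a condition for naming Mmp9 by size. The log2 fold changes were 6.61 ± 0.59 for Mmp9 (edgeR adjusted p = 3.83e-08) and 4.67 ± 0.63 for Mmp10 (adjusted p = 1.70e-06). Plau, the activator urokinase, and its receptor Plaur, both named after their values were seen, were also higher, at 2.74 ± 0.35 for Plau (adjusted p = 4.55e-07) and 2.22 ± 0.32 for Plaur (adjusted p = 1.82e-06).

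Structural matrix genes moved in both directions. Of 20 collagen chains 5 were higher and 5 lower, and 3 were lower without 2646R replicate 1. Col1a1, a chain of fibrillar collagen, had 704, 1006 and 1565 CPM in 2646R tumours, against 318, 329.8 and 254 CPM in 2646TN tumours (log2 fold change 1.86 ± 0.37, edgeR adjusted p = 4.48e-04). Col4a5, a chain of basement membranes, had 6.28, 9.23 and 6.56 CPM in 2646R tumours, against 44.8, 44.6 and 38.7 CPM in 2646TN tumours (log2 fold change -2.53 ± 0.27, adjusted p = 1.15e-08). Of 16 genes of elastic fibres and microfibrils 3 were higher and 7 lower. Eln, elastin, had 0.982, 0.473 and 0 CPM in 2646R tumours, against 112, 127 and 46.7 CPM in 2646TN tumours (log2 fold change -7.39 ± 1.33, adjusted p = 1.87e-04), while Lox, which cross-links elastin and collagen, had 15.5, 17.3 and 61.2 CPM in 2646R tumours, against 5.79, 2.81 and 4.495 CPM in 2646TN tumours (log2 fold change 2.80 ± 0.42, adjusted p = 5.95e-06). Fibroblast markers, several of which are matrix genes, summed to 5924, 6306 and 7225 CPM in 2646R tumours and 6722, 5595 and 4519.6 CPM in 2646TN tumours, with overlapping ranges.

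Genes of lineage and of contractile cells also differed. Among 10 tested neural crest and glial genes 6 were higher and 2 lower, and among 4 tested pigment cell genes 1 was higher and 1 lower. Sox10, the neural crest factor, had 5.303, 4.97 and 4.64 CPM in 2646R tumours, against 0.252, 0.312 and 0.4495 CPM in 2646TN tumours (log2 fold change 3.74 ± 1.07, edgeR adjusted p = 0.00733). Tfap2b, another neural crest factor, was lower, with 142, 169 and 134 CPM in 2646R tumours, against 657, 588 and 609.8 CPM in 2646TN tumours (log2 fold change -2.06 ± 0.31, adjusted p = 2.43e-05). Sox10 is also a marker of Schwann cells, a list that summed to 134, 76.5 and 78.1 CPM in 2646R tumours, against 31.7, 30.9 and 37.3 CPM in 2646TN tumours. In that list 3 of 5 tested genes were higher and 0 lower, with log2 fold changes from -2.51 to 3.94. Among markers of pericytes and smooth muscle, Acta2, smooth muscle actin, had 90.1, 61.1 and 143 CPM in 2646R tumours, against 18.9, 11.8 and 12.6 CPM in 2646TN tumours (log2 fold change 2.75 ± 0.52, adjusted p = 3.09e-04). Cspg4, the proteoglycan NG2, which melanoma cells also make, had 256, 243 and 177 CPM in 2646R tumours, against 22.7, 33.7 and 46.5 CPM in 2646TN tumours (log2 fold change 2.71 ± 0.25, adjusted p = 3.75e-09). Of the 7 tested markers of this list 3 were higher, 1 lower and 3 not called. The lower one, Notch3, had 0.982, 2.84 and 4.37 CPM in 2646R tumours, against 5.04, 8.42 and 8.32 CPM in 2646TN tumours (log2 fold change -1.45 ± 0.47, adjusted p = 0.0158), and its call was lost without 2646R replicate 1 or 2646TN replicate 3. The 11 listed markers summed to 468, 486 and 472 CPM in 2646R tumours, against 121, 114 and 116 CPM in 2646TN tumours, and the part of host cells in these differences was not tested.

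Of 14 mesenchymal transition factors and cadherins 6 were higher and 2 lower, and leaving out any library but 2646R replicate 2 left 1 lower. Cdh2, N-cadherin, had 28.5, 41.2 and 23.8 CPM in 2646R tumours, against 10.1, 10.9 and 13.9 CPM in 2646TN tumours (log2 fold change 1.41 ± 0.23, edgeR adjusted p = 1.50e-05), and Fn1, fibronectin, had 3898, 2908 and 3231 CPM in 2646R tumours, against 1821, 1838 and 1674 CPM in 2646TN tumours (log2 fold change 0.91 ± 0.17, adjusted p = 9.45e-05). Cdh6, K-cadherin, had 234, 178 and 182 CPM in 2646R tumours, against 12.1, 5.299 and 5.17 CPM in 2646TN tumours (log2 fold change 4.71 ± 0.39, adjusted p = 2.79e-09).

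The retinoic acid pathway differed gene by gene, with 2 of 15 genes higher and 5 lower. Aldh1a1, which makes retinoic acid, had 0, 0.237 and 0.273 CPM in 2646R tumours, against 31.7, 34.9 and 39.8 CPM in 2646TN tumours (edgeR adjusted p = 1.63e-08), a 2646TN to 2646R ratio of 232 (95% interval 64.1 to 1912). Rarb, a receptor that retinoic acid induces, had 0 counts in 2646R tumours and 5.79, 12.5 and 5.17 CPM in 2646TN tumours, and was at least 31.99-fold lower (adjusted p = 6.58e-06). Dhrs3, an enzyme that lowers retinoic acid and is induced by it, had 23.96, 20.4 and 23.5 CPM in 2646R tumours, against 139.6, 228 and 136 CPM in 2646TN tumours (log2 fold change -2.89 ± 0.21, adjusted p = 1.25e-11). Crabp2, which carries retinoic acid to its receptors, went the other way, with 79.9, 58.5 and 53.3 CPM in 2646R tumours, against 2.02, 2.18 and 1.35 CPM in 2646TN tumours (log2 fold change 5.12 ± 0.44, adjusted p = 6.57e-10).

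Genes of Wnt, Notch, TGF-beta and YAP signalling were called in both directions. Of 15 Wnt genes 1 was higher and 4 lower. Axin2, the best known target of beta-catenin, had 0.393, 1.89 and 0.273 CPM in 2646R tumours, against 21.2, 20.9 and 13.5 CPM in 2646TN tumours (log2 fold change -4.39 ± 0.63, edgeR adjusted p = 2.23e-06), whereas Lef1, a factor that acts with beta-catenin, had 35.4, 29.1 and 25.4 CPM in 2646R tumours, against 5.54, 10.3 and 5.17 CPM in 2646TN tumours (log2 fold change 2.12 ± 0.39, adjusted p = 7.13e-05). Of 9 Notch genes 6 were higher and 2 lower, and 4 to 5 were higher with a library left out. The calls of the lower genes, Notch3 and Lfng, were lost without 2646R replicate 1 or without 2646TN replicate 3. That of Lfng was also lost without 2646R replicate 2 or 2646TN replicate 1 or 2. Notch4 had 21.6, 17.04 and 26.5 CPM in 2646R tumours, against 1.51, 2.81 and 4.495 CPM in 2646TN tumours (log2 fold change 2.85 ± 0.49, adjusted p = 3.14e-05), and the ligand Jag1 had 135, 94.7 and 101 CPM in 2646R tumours, against 43.6, 27.1 and 33.04 CPM in 2646TN tumours (log2 fold change 1.67 ± 0.28, adjusted p = 3.49e-05).

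Of 22 genes of TGF-beta, BMP and activin signalling 5 were higher and 7 lower. Tgfb1, the ligand itself, had 25.7, 19.2 and 19.9 CPM in 2646R tumours, against 4.28, 7.79 and 7.19 CPM in 2646TN tumours (log2 fold change 1.76 ± 0.26, edgeR adjusted p = 2.48e-06), and Bmp4 had 16.5, 7.102 and 15.02 CPM in 2646R tumours, against 101, 117 and 147 CPM in 2646TN tumours (log2 fold change -3.23 ± 0.35, adjusted p = 5.69e-08). Of 18 YAP and TEAD genes 6 were higher and 4 lower, and 2 were lower without 2646R replicate 3. Tead4, a partner of YAP on DNA, had 28.9, 31.5 and 35.2 CPM in 2646R tumours, against 3.78, 5.299 and 6.29 CPM in 2646TN tumours (log2 fold change 2.62 ± 0.39, adjusted p = 3.70e-06), and its relative Tead3 had 11.8, 11.4 and 13.4 CPM in 2646R tumours, against 36.5, 33.4 and 40.7 CPM in 2646TN tumours (log2 fold change -1.60 ± 0.23, adjusted p = 2.74e-06).

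Cytokines were mixed too, with 4 of 20 genes of the NF-kappaB list higher and 2 lower. Il11, a cytokine of the IL-6 family, had 62.1, 76.9 and 81.1 CPM in 2646R tumours, against 12.1, 14.6 and 16.4 CPM in 2646TN tumours (log2 fold change 2.34 ± 0.49, edgeR adjusted p = 7.28e-04). Il11ra1, its receptor, had 32.8, 33.9 and 64.2 CPM in 2646R tumours, against 1020.1, 1160.1 and 1285 CPM in 2646TN tumours (log2 fold change -4.74 ± 0.34, adjusted p = 8.80e-10), the largest fold among the genes named for their level. Ptgs2, the enzyme COX-2, had 101, 85.7 and 91.2 CPM in 2646R tumours, against 28.5, 16.2 and 22.9 CPM in 2646TN tumours (log2 fold change 2.03 ± 0.54, adjusted p = 0.00539). Without 2646R replicate 1 or without 2646TN replicate 1, 2 genes of this list were higher, and without 2646R replicate 1 or 2 or 2646TN replicate 3, 1 was lower.

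Some genes were present in 1 clone and near 0 in the other. Tnnt2, cardiac troponin T, had 184, 108 and 111 CPM in 2646R tumours, against 2.77, 0.312 and 0 CPM in 2646TN tumours (log2 fold change 6.98 ± 0.72, edgeR adjusted p = 1.12e-07). Rbfox1, a splicing regulator of nerve and muscle, had 24.9, 17.3 and 25.4 CPM in 2646R tumours, against 0.252, 0 and 0 CPM in 2646TN tumours, a ratio of 263 (95% interval 47.1 to 10369). Ldb2, a cofactor of LIM proteins, had 11.4, 14.4 and 5.46 CPM in 2646R tumours and 0 counts in 2646TN tumours, and was at least 41.5-fold higher. Ibsp, bone sialoprotein, had 68.5, 126 and 69.7 CPM in 2646R tumours, against 1.51, 2.18 and 0.899 CPM in 2646TN tumours (log2 fold change 5.87 ± 0.72, adjusted p = 4.19e-06). On the other side, Pet2, an X-linked gene, had 0 counts in 2646R tumours and 54.7, 98.8 and 62.5 CPM in 2646TN tumours, and was at least 302-fold lower. Ptprf, a receptor phosphatase, had 0, 0.237 and 0 CPM in 2646R tumours, against 54.9, 60.2 and 33.9 CPM in 2646TN tumours, a 2646TN to 2646R ratio of 627 (95% interval 113 to 24775). Aldh1a7, an aldehyde dehydrogenase close to Aldh1a1, had 0 counts in 2646R tumours and 14.1, 14.3 and 21.4 CPM in 2646TN tumours, at least 73.3-fold lower. Zic5, Atoh8 and Ctsf likewise had 0 counts in 2646R, and their levels in 2646TN were 7.22 ± 0.957 CPM for Zic5, 7.74 ± 3.47 CPM for Atoh8 and 6.82 ± 1.89 CPM for Ctsf (SD, n = 3). DESeq2 did not call Zic5 (adjusted p = 0.203). Of the called genes, 17 of those higher and 72 of those lower had 0 counts in all libraries of the lower group, and intervals and floors cover counting error only.

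Among abundant genes, Aqp1, a water channel, had 1218, 1827 and 1939 CPM in 2646R tumours, against 7403, 7999 and 9173 CPM in 2646TN tumours (log2 fold change -2.30 ± 0.21, edgeR adjusted p = 3.75e-09). Grn, the lysosomal growth factor progranulin, had 342, 494 and 532 CPM in 2646R tumours, against 1454, 1548 and 1968 CPM in 2646TN tumours (log2 fold change -1.86 ± 0.20, adjusted p = 4.59e-08). Cald1, the actin-binding protein caldesmon, had 3723, 3182 and 3166 CPM in 2646R tumours, against 1595, 1458 and 1367 CPM in 2646TN tumours (log2 fold change 1.19 ± 0.13, adjusted p = 4.01e-08). Ctsl, the lysosomal protease cathepsin L, had 2743, 1637 and 2109.9 CPM in 2646R tumours, against 710.5, 644 and 513 CPM in 2646TN tumours (log2 fold change 1.80 ± 0.21, adjusted p = 1.77e-07), although of 31 lysosome and autophagy genes 7 were higher and 11 lower. Spp1, the matrix protein osteopontin, had 2416, 1808 and 1428 CPM in 2646R tumours, against 630.4, 668 and 577 CPM in 2646TN tumours (log2 fold change 1.59 ± 0.33, adjusted p = 6.64e-04). No overlap between the groups was a condition for naming these 5 genes, so it is not a result.

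Genes on chromosomes 6 and 15 stood apart as a whole. Of 666 tested genes on chromosome 6, 37.5% were higher and 9.61% lower in 2646R, with a median log2 fold change of 0.38. On chromosome 15, 40.3% of 514 genes were higher and 8.75% lower, with a median of 0.45. Over all other genes 16.3% were higher and 19.2% lower, and the median of every other chromosome lay between -0.20 (chromosome 7) and 0.10 (chromosome 16). In running windows of 50 neighbouring genes, which overlap, the median was above 0 in all 617 windows of chromosome 6 and all 465 of chromosome 15. Every other chromosome had windows with a median below 0. The window mean was less uniform, and its lowest value was -0.45 on chromosome 6 and -0.25 on chromosome 15. Measured by library over genes with at least 10 CPM, and set against the mean of untreated 2646TN, the chromosome 6 median was 0.50, 0.45 and 0.33 in untreated and 0.48, 0.50 and 0.52 in treated 2646R tumours. For chromosome 15 it was 0.42, 0.44 and 0.54 in untreated and 0.59, 0.52 and 0.48 in treated 2646R tumours. Neither chromosome stood out in the 14559R-14559TN pair, whose medians were -0.03 and 0.03. DNA copy number was not measured. Of the genes named above, Cald1, Gadd45a, Gapdh, Hk2, Tpi1, Asns, Aqp1, Atoh8, Ccnd2, Cxcl12, Braf, Mcm2, Mitf, Tead4 and Edem1 lie on chromosome 6, and Atf4, Myc, Sox10, Cdh6 and Ndrg1 on chromosome 15. Of the 12106 tested genes off both chromosomes 1974 were called higher and 2329 lower, 4303 together. The called higher were 24 of 31 ATF4, 12 of 24 glycolysis and 11 of 20 ribosome production genes off these chromosomes. Off them 1 glycolysis gene and 26 of 30 type I interferon genes were called lower. These are counts from the same fit, not a new fit, so they do not test the part of the 2 chromosomes.

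**Figure D4:**
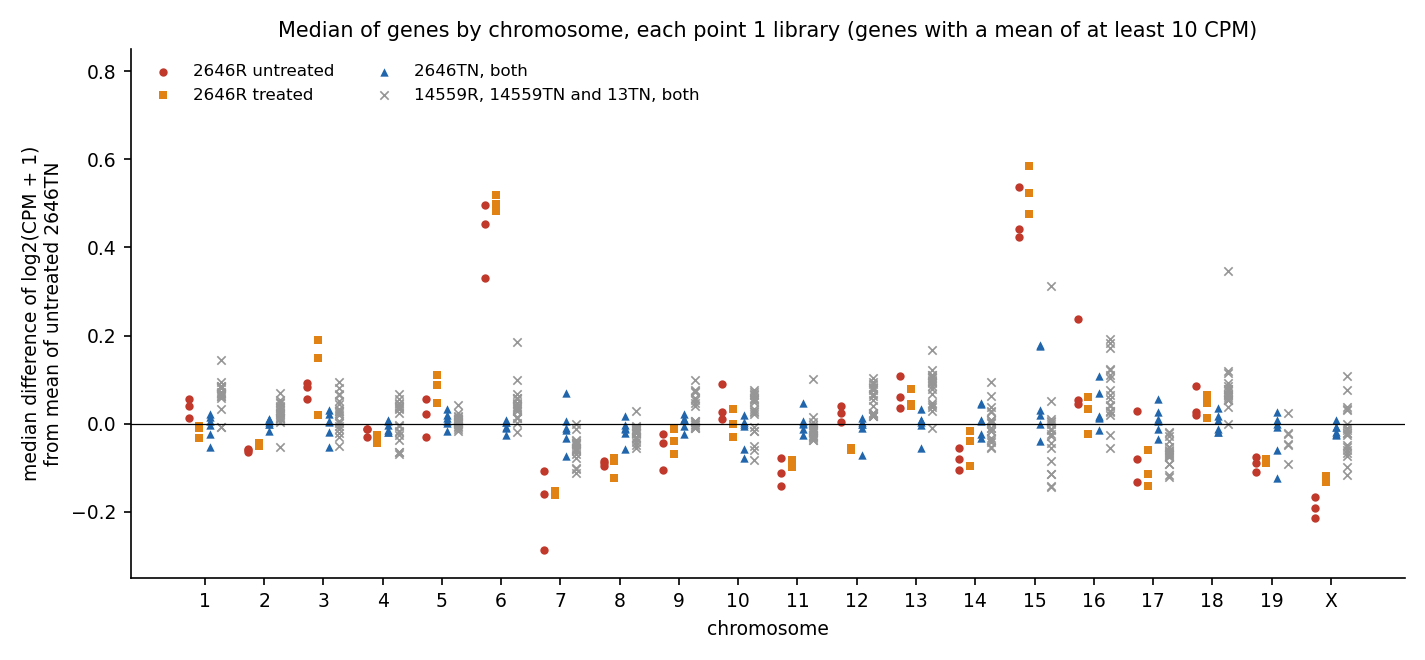
Each point is 1 library, and its height is the median over the genes of a chromosome of the difference in log2(CPM + 1) from the mean of untreated 2646TN, for genes with a mean of at least 10 CPM. The 2646R tumours, untreated and treated, lie at 0.33 to 0.59 on chromosomes 6 and 15, above the libraries of the other clones there.

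The 14559R-14559TN pair, which shares no library with the 2646R-2646TN pair, was tested in the same way. In untreated 14559R against 14559TN 3199 genes were called, which is 24.1% of those tested. The same direction was called in both pairs for 1375 genes, 28.2% of the genes called in the 2646R-2646TN pair and 43.0% of those called in the 14559R-14559TN pair, and the opposite direction for 212. The difference between the pairs, tested in the same fit, was called for 2205 genes (16.6%). Stress and hypoxia genes were higher in both pairs: of the 35 ATF4 genes 25 were higher and 1 lower in 14559R, of the 29 glycolysis and hypoxia genes 22 were higher and 0 lower, and the difference between the pairs was called for 4 genes of each list. Car9 had log2 fold changes of 3.19 ± 0.32 in the 2646R-2646TN pair and 3.41 ± 0.36 in the 14559R-14559TN pair, and Mmp9 had 6.61 ± 0.59 in the first and 4.99 ± 0.58 in the second. Of the 31 type I genes 2 were higher and 3 lower in 14559R, and the difference between the pairs was called negative for 17. Rsad2 had a log2 fold change of -3.38 ± 0.51 in the 2646R-2646TN pair and 0.73 ± 1.01 in the 14559R-14559TN pair. Of the 7 MHC class II genes 0 were called in the 14559R-14559TN pair and the difference was called for 3.

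Among single genes, Eln had a log2 fold change of -7.39 ± 1.33 in the 2646R-2646TN pair and 3.31 ± 1.24 in the 14559R-14559TN pair, a difference of -10.70 ± 1.82 (edgeR adjusted p = 3.75e-04). Eln had 1.75, 43.5 and 0.733 CPM in 14559R tumours and 0.761, 2.46 and 1.51 CPM in 14559TN tumours, so 1 tumour of 14559R carried most of its counts there; without it (14559R replicate 2) the difference was -7.09 (adjusted p = 0.0291). Nefl, a neurofilament gene, had -1.82 ± 0.61 in the 2646R-2646TN pair and 7.16 ± 0.95 in the 14559R-14559TN pair, a difference of -8.97 ± 1.15 (adjusted p = 1.84e-05). Nkd2, an inhibitor of Wnt signalling, had -5.09 ± 0.82 in the first pair and 3.82 ± 0.81 in the second, a difference of -8.91 ± 1.14 (adjusted p = 1.84e-05). Eya4, a transcription cofactor, had 4.81 ± 0.81 in the first pair and -1.89 ± 0.54 in the second, a difference of 6.70 ± 0.98 (adjusted p = 2.07e-05). The call of Nefl within the 2646R-2646TN pair was lost when 2646R replicate 1 or 2, or 2646TN replicate 1 or 3, was left out.

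In treated tumours of the same clones 2669 genes were called between 2646R and 2646TN, which is 20.1%, and 1754 of these had the direction called in untreated tumours (65.7% of the treated calls and 36.0% of the untreated calls), with 38 in the opposite direction. These comparisons share no library. The difference between them was called for 551 genes (4.15%), or 359 without untreated 2646R replicate 1 and 364 without treated 2646TN replicate 1. The interferon lists were lower in both states, with a type I median of -3.29 in treated and -2.44 in untreated tumours. Of the 35 ATF4 genes 5 were higher and 3 lower in treated 2646R, with a median of 0.42, against 28 higher in untreated 2646R. The difference was called for 6 of the 35, all of them negative. Ddit3 averaged 47.3 ± 3.95 CPM in treated 2646R tumours and 55.2 ± 18.6 CPM in treated 2646TN tumours (SD, n = 3 each), a log2 fold change of -0.23 ± 0.26, against 2.39 ± 0.26 in untreated tumours, and the difference was -2.63 ± 0.37 (edgeR adjusted p = 1.77e-04). Of the 26 mitosis genes 18 were higher in treated 2646R, against 2 in untreated 2646R, but the difference was called for 1 gene. Of 13 macrophage markers 3 were higher in treated 2646R, and the difference was called positive for 9.

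Among single genes, Pappa averaged 3.25 ± 2.09 CPM in treated 2646R tumours and 0.893 ± 0.562 CPM in treated 2646TN tumours (SD, n = 3 each), against 0 counts in untreated 2646R tumours and 5.41 ± 3.18 CPM in untreated 2646TN tumours. The difference of its log2 fold changes was called (edgeR adjusted p = 1.98e-04), and its size is uncertain because 1 group had no count. Lgals3, the lectin galectin-3, averaged 81.8 ± 0.983 CPM in treated 2646R tumours and 300.3 ± 50.6 CPM in treated 2646TN tumours, a log2 fold change of -1.88 ± 0.32 (adjusted p = 2.31e-04), against 2.20 ± 0.32 in untreated tumours, where the levels were 709, 619 and 673 CPM in 2646R and 132, 149 and 153 CPM in 2646TN. The difference was -4.08 ± 0.45 (adjusted p = 2.62e-05). Cdsn, a protein of cell junctions in skin, had a log2 fold change of -2.05 ± 0.73 in treated and 3.13 ± 0.56 in untreated tumours, a difference of -5.17 ± 0.92 (adjusted p = 8.55e-04).

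**Figure D5:**
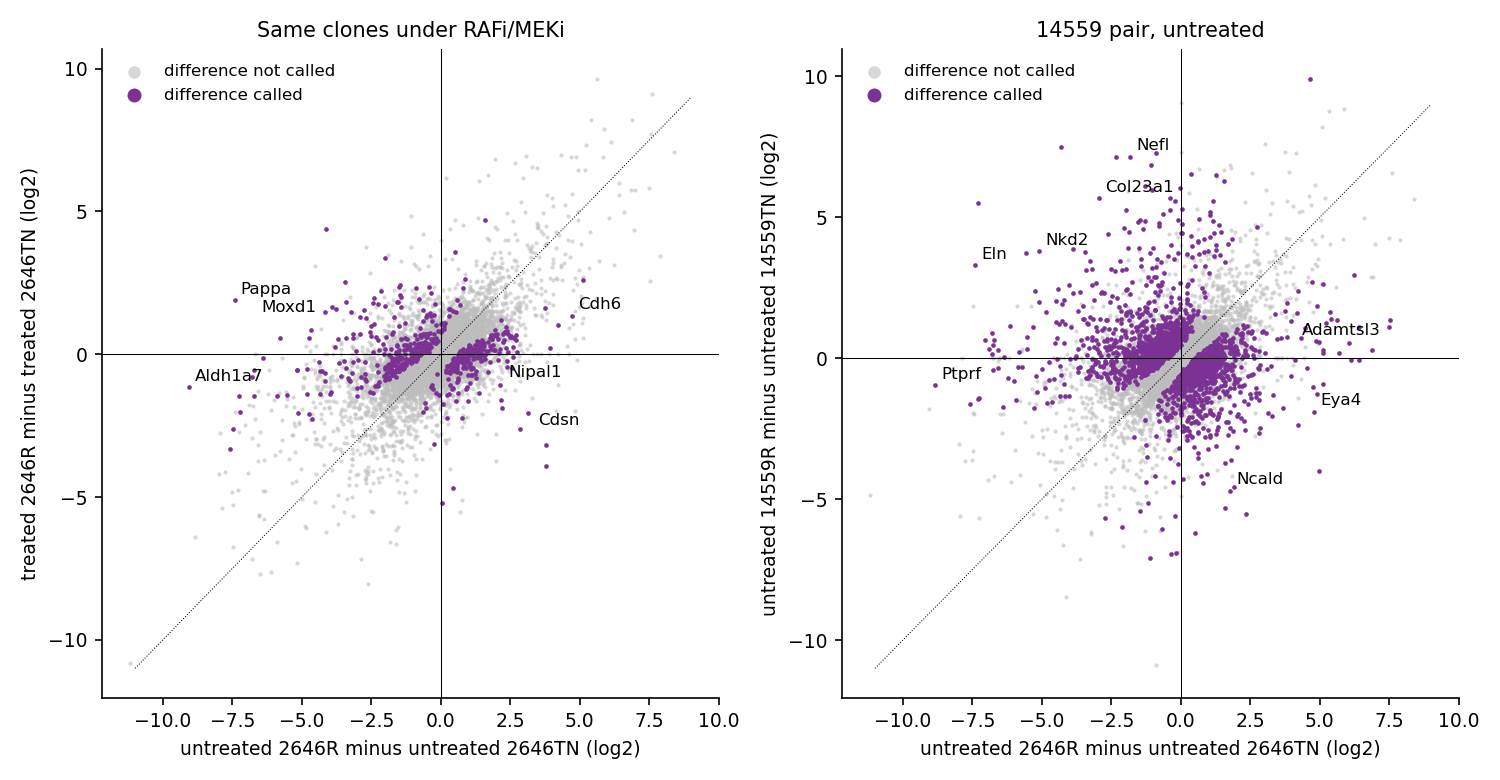
Each point is 1 gene, with its log2 fold change in untreated 2646R minus untreated 2646TN on the horizontal axis and, on the vertical axis, that of the treated 2646R-2646TN pair (left) or of the untreated 14559R-14559TN pair (right). Purple points are the genes whose difference was called, 551 on the left and 2205 on the right, and the dotted line marks equal log2 fold changes.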

How the data were processed

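Messenger RNA 3′ ends of sorted tumour cells were sequenced with QuantSeq. The deposited values are raw counts per gene: per the submitters' processing notes reads were aligned with STAR 2.6.0c to GRCm38, and per the file headers they were counted with featureCounts 1.6.2 with the strand setting. The 6 libraries held 3125170 to 5278453 counts. Genes passing edgeR's expression filter by group (13286) were scaled with TMM and tested with edgeR 4.0.16 (R 4.3.3), quasi-likelihood, robust, over all 30 libraries in 10 groups; a call is a Benjamini-Hochberg adjusted p under 0.05, and errors of fold changes are standard errors. DESeq2 1.42.0, median-of-ratios scaling, no filter, only the groups compared and leaving out each library were alternatives. The fit was also run on simulated data with equal spread in all groups and few changed genes. Because the real data differ in both, that run checks the code and not the calls given here. Gene lists, and the members, were chosen with earlier results of these data known. The 15 largest called changes on each side were named among genes without overlap and with at least 5 CPM in the higher group. The 5 largest differences in level on each side were named among genes without overlap that changed over 2-fold. Up to 4 called genes per list were also named. So were the 5 largest on each side of each difference, among genes without overlap between the clones in the 6 libraries. Where no overlap was a condition for naming a gene, it is not a result. Genes outside these rules were named after their values were seen. They were Adgre1, Asns, Bnip3l, H2-K1, Hgf, Isg15, Mitf, Plau, Plaur, Slc2a1, Slc7a11, Vegfa and genes listed as not called. Promoters came from a RefSeq table on GRCm38.p6. Some genes are not reported here.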

Additional observations from a re-analysis of the deposited data

Results flagged for a closer look

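The log2 fold change of an R clone against its TN clone differed between the untreated 2646R-2646TN pair and the untreated 14559R-14559TN pair for 2205 genes by edgeR's test of the difference itself. The named genes with a positive difference (the first pair minus the second) were Eya4 (6.70), Ncald (6.48), Adamtsl3 (6.38) and Gm37452 (6.18). Those with a negative difference were Eln (-10.70), Nefl (-8.97), Nkd2 (-8.91), Col23a1 (-8.65) and Ptprf (-7.88). The difference of Ptprf was not called without 14559R replicate 3 (adjusted p = 0.181).

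Between treated and untreated tumours of 2646R and 2646TN the log2 fold change differed for 551 genes by the same test. The named genes with a positive difference (treated minus untreated) were Pappa (9.31), Aldh1a7 (7.91), Moxd1 (5.65), Tmem176b (5.59) and Tmem176a (5.52). Those with a negative difference were Cdsn (-5.17), Lgals3 (-4.08), Cdh6 (-3.35) and Nipal1 (-3.22). The sizes are uncertain where a group had few or 0 counts.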

How the results depend on the processing

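Of 238 named genes, 191 kept their call under all 10 other settings, 44 lost it under at least 1 and 3 gained one; 0 reversed. The mean log2 fold changes of several chromosomes other than 6 and 15 changed sign under at least 1 setting. The 4869 calls became 764 (305 higher, 459 lower) when a fold of at least 2 was itself tested and 3214 at an adjusted p under 0.01. They were 5010 with DESeq2, 4606 without the filter, 4042 with only the groups compared and 3748 to 4667 with a library left out. The 551 treated differences became 977 without the filter, and 359 to 811 with a library left out. Lower interferon gamma genes, 10 of 20, became 16 without the filter, 6 with only the groups compared and 6 to 13 with a library left out (6 without 2646R replicate 1). The mean log2 fold change of chromosome 6 was 0.29, but 0.42 at 10 CPM or more and 0.11 without the filter; that of chromosome 15 was 0.37, but 0.49 and 0.19, and 0.28 (without 2646R replicate 3) to 0.40 with a library left out. The cause was not tested. Genes with few counts limit the size of a fold more than its direction. No paired analysis was possible because the labels tie no 2646R tumour to a 2646TN tumour.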

Other observations

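A few genes were near 0 in 2646TN, or near 0 in every clone but 2646TN, in untreated and treated tumours; they were chosen after their values were seen and are given as values. The neighbouring transcripts Gm12609 and Gm12610 on chromosome 4 (89381957 to 89399880 and 89421848 to 89463487, GRCm38) had 0 counts in both 2646TN groups and counts in each of the other 8 groups. Mtap, a gene of methionine salvage nearby on chromosome 4 (89137122 to 89181081), had 304, 349 and 288 CPM in untreated 2646R tumours, against 597, 689 and 593 CPM in untreated 2646TN tumours. On chromosome 7, Tshz3, a developmental transcription factor (36698118 to 36773553), had 26.7, 25.1 and 27.9 CPM in untreated 2646R tumours, against 0, 0 and 1.35 CPM in untreated 2646TN tumours. Gm37452, Gm38340 and E230020A03Rik, which lie within the span of Tshz3, were near 0 in 2646TN as well, and all 4 were also low in the clone 13TN. Pet2 had 232, 130.5 and 233 CPM in treated 2646TN tumours, against 54.7, 98.8 and 62.5 CPM in untreated 2646TN tumours, and at most 5.11 CPM in any library of the other clones.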
